A study of Mus musculus with 6 samples.

Results

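The genes described here are 32 genes of glucose uptake, glycolysis, lactate and pyruvate handling and the pentose phosphate pathway, with the hypoxia-linked mitophagy gene Bnip3. They were chosen by name, from a list of 33 symbols in which Pkm and Pkm2 stand for the same gene. The table of 24043 gene rows holds it as Pkm. RNA-seq was done on mouse embryonic stem (ES) cells, which are pluripotent cells of the early embryo, with 3 wild-type libraries and 3 libraries labelled Q-KO, whose genotype label states that no G1 cyclin is left. Every culture held LIF (leukaemia inhibitory factor, a self-renewal cytokine) together with PD184352, which inhibits MEK, and CHIR99021, which inhibits GSK3. The labels do not give the clone, passage or oxygen level, and they do not say that replicates were separate cultures. A p-value here therefore reflects the spread among these 6 samples alone, and part of that spread may be technical. Y-linked transcripts were at 0 in wild-type replicates 1 and 2 and present in wild-type replicate 3 and every Q-KO library. The wild-type group therefore mixes cells that differ in this, and its replicates 1 and 2 differ in it from every Q-KO library. Values are FPKM, fragment counts scaled by gene length and by library total, so levels of different genes can be set side by side. Values of single libraries are given in the order of replicates 1, 2 and 3 of each group.

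Glycolysis splits glucose into pyruvate. Hexokinase and phosphofructokinase catalyse its early committed steps. Lactate dehydrogenase then reduces pyruvate to lactate, or pyruvate dehydrogenase converts it to acetyl-CoA inside the mitochondrion. The pentose phosphate pathway branches off glucose 6-phosphate and yields NADPH and ribose for nucleotides. Proliferating ES cells use much glucose in this way, and the hypoxia-inducible factors (HIFs) raise transcription of many of these genes when oxygen is low. Cyclin D with its kinases has been linked to phosphorylation of glycolytic enzymes, phosphofructokinase among them, which is an effect on protein that transcript levels do not show.

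The libraries differed among themselves within groups. Summed FPKM ranged from 525134 to 641715. Relative to wild-type replicate 1, the remaining libraries were 1.10 to 1.21 times as deep, as judged from low values. Pearson's r of log2(FPKM + 1) across genes, which are not independent replicates, was 0.942 to 0.973 within the wild-type group, and wild-type replicate 3 had the lower values. Between the groups r was 0.924 to 0.955. Wild-type replicate 2 had a higher r with each Q-KO library (0.949 to 0.951) than with wild-type replicate 3 (0.942). For wild-type replicate 1 the order was the other way (0.946 to 0.955 against 0.957). Of the G1 cyclins, Ccnd1, Ccnd3 and Ccne2 fell (limma adjusted p = 0.0124, 0.0101 and 0.0182), Ccnd2 was under the filter in both groups, and Ccne1 did not pass (adjusted p = 0.113) with a higher mean in the Q-KO libraries. The deleted stretch of each cyclin gene is not stated, so a remaining transcript checks nothing, and each direction refers to libraries by their label, Q-KO. ES cell markers were present in every library, with Pou5f1 at 589 FPKM or more, but Zfp42 (76.6, 78.9 and 363 FPKM in the wild-type libraries) and Dppa3 (42.99, 113 and 273 FPKM) were high in wild-type replicate 3. The sum of 10 fibroblast markers was 7.61 FPKM in Q-KO replicate 1, with Col1a1 at 1.86 FPKM, and 1.76 to 3.44 FPKM in the others. The 5 Y-linked genes examined were at 0 in wild-type replicates 1 and 2 and detected in the other 4 libraries, and genes of chromosomes 8 and 11 had a median log2 excess of 0.25 in wild-type replicate 3 over wild-type replicates 1 and 2. Among the genes described here, Pgls lies on chromosome 8 and Aldoc and Slc16a3 on chromosome 11.

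All 32 genes had a mean of at least 1 FPKM and were tested with limma among 11573 genes. Hk1, a hexokinase gene, and Pfkm, the muscle-type phosphofructokinase gene, fell in the Q-KO libraries, and 0 of the 32 rose. Changes are differences of log2(FPKM + 1), Q-KO minus wild type, with Benjamini-Hochberg adjusted p-values over all tested genes and a threshold of 0.05. Over all tested genes 1.02% fell and 3.04% rose. In bulk RNA, fewer cells of a type and less RNA per cell cannot be told apart. Separate ranges, with every Q-KO library below every wild-type library, were found for 4 of the 32 (Hk1, Pfkm, Eno1 and Pdha1), and separate ranges in the other direction for 0. Over all genes the ranges were separate and lower for 9.44%, separate and higher for 18.2%, and separate in either direction for 27.7%. The unadjusted p was under 0.05 for 7 of the 32, against 21.5% of all genes. All 7 were lower and 0 higher, while over all 11573 tested genes 775 were lower and 1718 higher at this limit. The log2 change was below 0 for 23 of the 32 (40.7% of all genes), with a median of -0.15 beside 0.07 over all tested genes. This median was 0.02 when wild-type replicate 3 was the only wild-type library compared. The 2 calls lay in the upper part of glycolysis. Among the 9 genes there 2 fell, and 0 of 2 glucose carriers, 0 of 7 genes of lower glycolysis, 0 of 6 genes of lactate and pyruvate and 0 of 7 pentose phosphate genes passed.

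**Figure D1:**
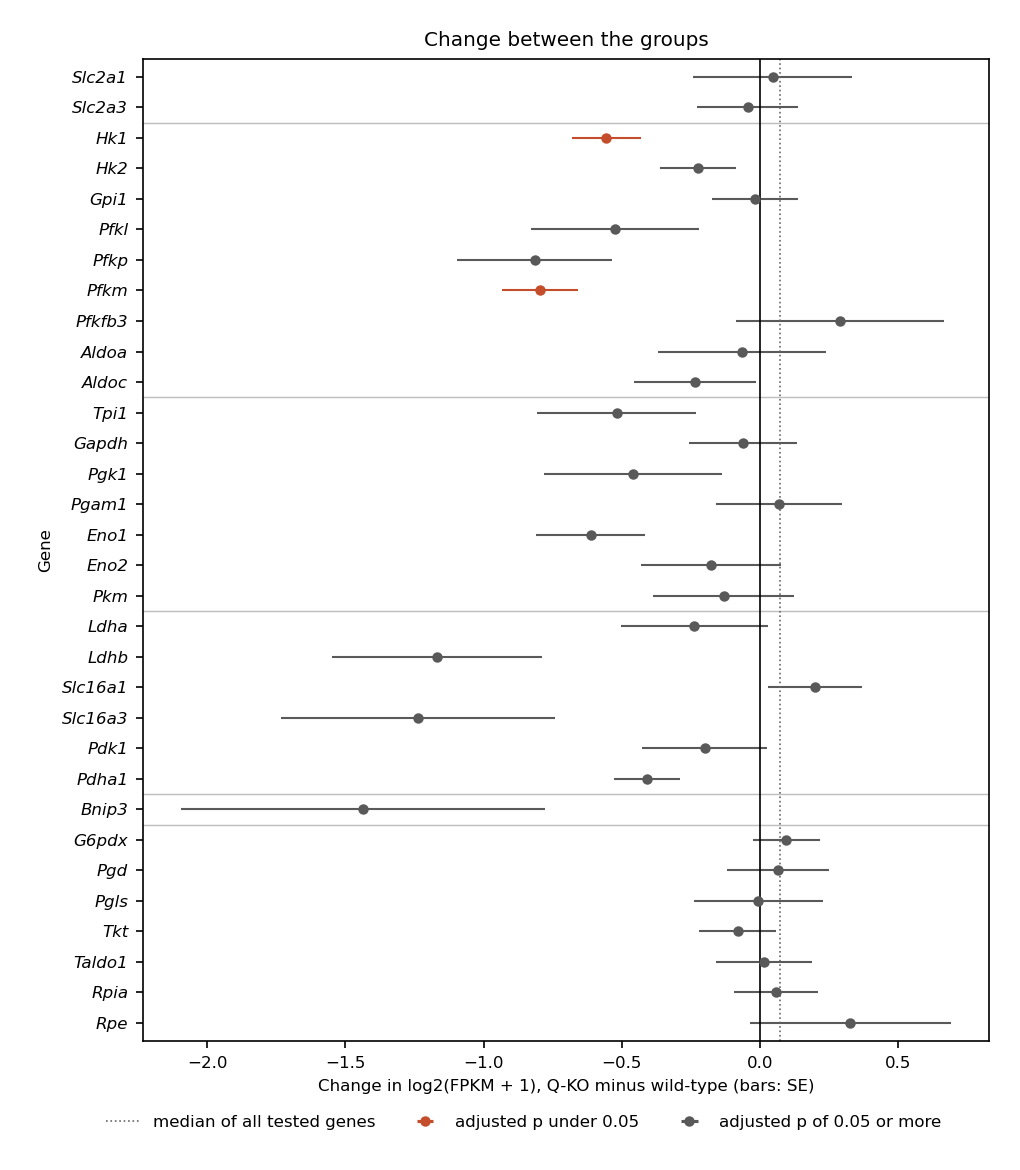
Change in log2(FPKM + 1) between Q-KO and wild-type libraries for the 32 genes, in the order of their roles (horizontal lines separate roles). Points are limma estimates with their SE, the dotted line is the median of all tested genes (0.07), and Hk1 (-0.56) and Pfkm (-0.80) are the genes past the threshold.

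Glucose enters the cell through Slc2a1 (GLUT1) and Slc2a3 (GLUT3). Slc2a3 was at 300.2, 356 and 299.7 FPKM for the wild type, with 239, 344 and 354 FPKM for Q-KO (log2 change -0.04, SE 0.18, limma adjusted p = 0.915). Slc2a1 was at 104, 80.5 and 47.4 FPKM (wild type) against 58.6, 81.9 and 90.98 FPKM (Q-KO) (log2 change 0.05, SE 0.29, limma adjusted p = 0.945). The lowest wild-type library for Slc2a1 was replicate 3, and both genes had overlapping ranges.

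Hexokinases trap glucose in the cell as glucose 6-phosphate. Hk1 (chromosome 10), the widely expressed form that binds mitochondria, was at 37.6, 32.00 and 33.2 FPKM for the wild type, with 22.9, 23.6 and 22.3 FPKM for Q-KO. Each Q-KO library was below each wild-type library, and the means were 34.3 ± 2.93 FPKM (wild type) and 22.9 ± 0.678 FPKM (Q-KO), each ± SD with n = 3 as for all means given here. Hk1 thus fell (log2 change -0.56, SE 0.12, limma adjusted p = 0.0492). This call lay at the threshold and passed in 0 of the 6 fits that leave out a library, with adjusted p from 0.0613 (without wild-type replicate 2) to 0.206 (without Q-KO replicate 2), while its log2 change stayed between -0.60 and -0.49. The transcript of Hk1 shares 0% of its 31-base words with transcripts of other genes, and Hk1os, annotated as its opposite-strand transcript, was listed at no more than 1.37 FPKM in a library. Hk2, the insulin- and hypoxia-responsive form, was at 60.3, 53.4 and 46.3 FPKM (wild type) against 42.95, 47.5 and 45.5 FPKM (Q-KO), and its ranges overlapped (log2 change -0.22, SE 0.14, limma adjusted p = 0.388). Gpi1, which converts glucose 6-phosphate to fructose 6-phosphate, had 184 ± 28.5 FPKM (wild type) and 181 ± 16.2 FPKM (Q-KO) (adjusted p = 0.96).

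Phosphofructokinase, which commits fructose 6-phosphate to glycolysis, is built from the subunits Pfkm, Pfkl and Pfkp. Pfkm (chromosome 15) was at 19.5, 18.8 and 21.8 FPKM for the wild type, with 10.7, 10.3 and 12.4 FPKM for Q-KO. The groups were far apart relative to their spread, at 20.04 ± 1.52 FPKM (wild type) and 11.1 ± 1.09 FPKM (Q-KO), and Pfkm fell (log2 change -0.80, SE 0.14, limma adjusted p = 0.0219). Its transcript also shares 0% of its 31-base words with other genes. The direction held in each fit that left out a library, with a log2 change of -0.87 to -0.74. The call passed without wild-type replicate 2 (adjusted p = 0.0389) or wild-type replicate 3 and was lost without wild-type replicate 1 (0.0817) and without Q-KO replicate 1, 2 or 3 (0.0787, 0.146 and 0.0543). Pfkp, the platelet form and the most abundant subunit, was at 106, 124 and 56.8 FPKM (wild type) against 42.9, 52.3 and 59.8 FPKM (Q-KO). Wild-type replicates 1 and 2 stood above the other 4 libraries, and the change did not pass (log2 change -0.81, SE 0.28, limma adjusted p = 0.148). Without wild-type replicate 3 Pfkp fell by 1.15 (adjusted p = 0.0130). That library held its lowest wild-type value, so leaving it out raises the wild-type mean by construction. Pfkl, the liver form, was at 64.7, 53.1 and 28.2 FPKM for the wild type, with 24.4, 33.9 and 38.4 FPKM for Q-KO, and the same wild-type libraries were high (log2 change -0.52, SE 0.30, limma adjusted p = 0.361). Pfkfb3, which makes the allosteric activator fructose 2,6-bisphosphate, was low in all libraries, from 1.15 FPKM in wild-type replicate 3 to 5.60 FPKM in wild-type replicate 2 (log2 change 0.29, adjusted p = 0.704).

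Aldolase splits fructose 1,6-bisphosphate. Aldoa was at 1279.8, 1172 and 611 FPKM (wild type) against 730.4, 938 and 1166 FPKM (Q-KO), and the ranges overlapped (log2 change -0.07, SE 0.30, limma adjusted p = 0.925). Aldoc, which made up 1.45% to 3.06% of the summed aldolase FPKM, was at 18.8, 22.4 and 19.3 FPKM for the wild type, with 12.5, 16.2 and 23.9 FPKM for Q-KO and did not pass either (log2 change -0.23, adjusted p = 0.581). Aldoart1, a testis retrogene derived from Aldoa, was listed at 0.466% to 0.508% of the Aldoa value in each of the 6 libraries, and 13.6% of the 31-base words of the Aldoa transcript occur in it.

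**Figure D2:**
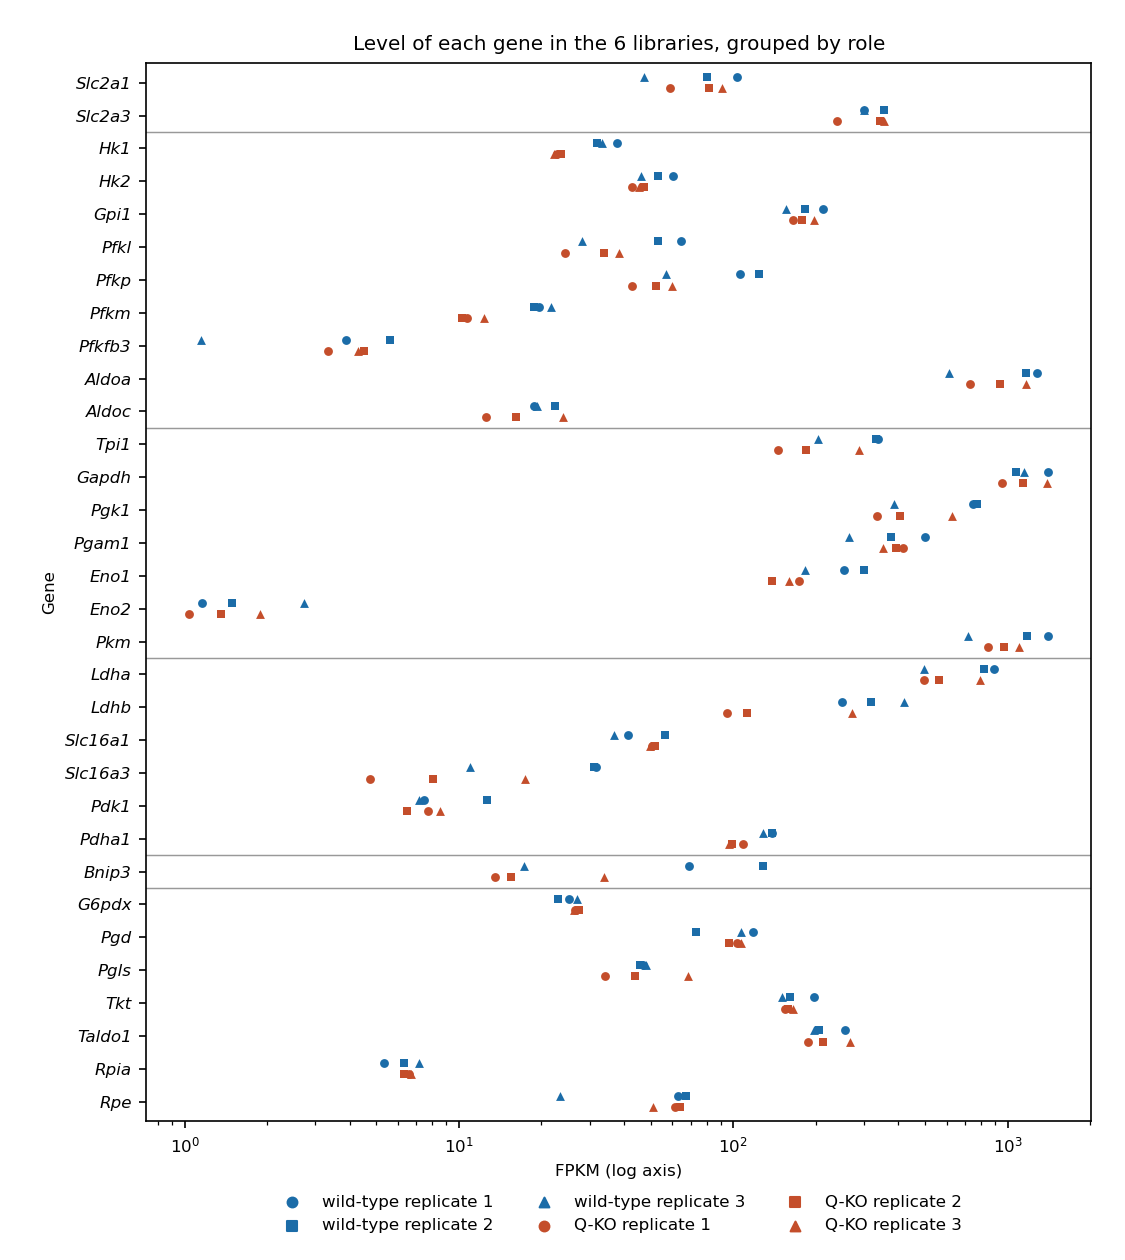
FPKM of each of the 32 genes in every library, on a log axis, with genes in the order of their roles (horizontal lines separate roles). Wild-type libraries are blue and Q-KO libraries orange; for Hk1 and Pfkm the colours separate, and for most other genes they interleave.

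Lower glycolysis runs from triose phosphates to pyruvate. Gapdh, the most abundant gene here in group means, was at 1401, 1071 and 1149.9 FPKM (wild type) against 957, 1139 and 1394 FPKM (Q-KO) (log2 change -0.06, SE 0.19, limma adjusted p = 0.889). Pkm, pyruvate kinase, had 1103 ± 351 FPKM (wild type) and 974 ± 125 FPKM (Q-KO) (adjusted p = 0.806). Pgk1, phosphoglycerate kinase, was at 746, 776 and 386 FPKM for the wild type, with 336, 405 and 629.6 FPKM for Q-KO (log2 change -0.46, SE 0.32, limma adjusted p = 0.454). Tpi1, triose phosphate isomerase, was at 339, 332 and 204 FPKM (wild type) against 146, 184 and 288 FPKM (Q-KO) (log2 change -0.52, SE 0.29, limma adjusted p = 0.339). For both genes wild-type replicates 1 and 2 were the highest and Q-KO replicate 3 came next, above wild-type replicate 3. Pgam1, phosphoglycerate mutase, ranged from 265 to 502 FPKM (wild type) and from 352 to 416 FPKM (Q-KO) (adjusted p = 0.893).

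Enolase makes phosphoenolpyruvate, and its main gene has a close copy in the mouse genome. Eno1 was at 253, 299 and 182 FPKM for the wild type, with 174, 138 and 159 FPKM for Q-KO, so that the ranges did not overlap, with a log2 change that did not pass (-0.61, SE 0.20, limma adjusted p = 0.128). Eno1b, the copy, was listed at more than Eno1 in every library, at 1022, 621 and 406 FPKM (wild type) against 402, 465 and 562 FPKM (Q-KO). Of the 31-base words of the Eno1 transcript 75.6% also occur in Eno1b, and Eno1b was listed at 208% to 405% of Eno1 depending on the library. The sum of both rows was 1275, 920.0 and 589 FPKM for the wild type, with 575, 603 and 721 FPKM for Q-KO, and on this sum the ranges overlapped (log2 change -0.49, SE 0.27, limma adjusted p = 0.340). The row of Eno1 alone fell by 0.81 without wild-type replicate 3, which held its lowest wild-type value (adjusted p = 0.0343). The neuronal enolase gene Eno2 was near the filter, at 1.16, 1.49 and 2.73 FPKM (wild type) against 1.04, 1.36 and 1.88 FPKM (Q-KO) (adjusted p = 0.73).

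**Figure D3:**
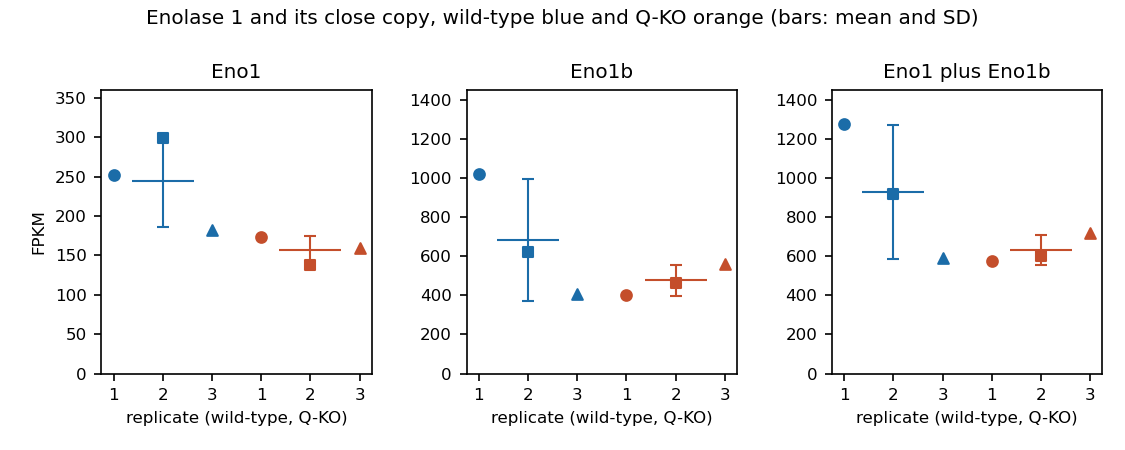
FPKM of Eno1, Eno1b and their sum in each library (wild-type blue, Q-KO orange, bars for mean ± SD of 3 libraries). The groups are separate for Eno1 alone, at 182 FPKM or more against 174 FPKM or less, and overlap for the sum.

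Shared sequence also touches other genes of this set. More than 10% of the 31-base words occur in transcripts of another gene for 13 of the 32, and the share was largest for Gapdh (84.1%), Eno1 (77.2%) and Pgk1 (68.3%). How the authors assigned such fragments is not given in the sources used here, so values of these 13 genes (Gpi1, Aldoa, Tpi1, Gapdh, Pgk1, Pgam1, Eno1, Pkm, Ldha, Ldhb, Bnip3, G6pdx and Taldo1) are uncertain.

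Pyruvate is reduced to lactate by tetramers of Ldha and Ldhb, of which Ldha favours lactate formation. Ldha was at 891, 821 and 495 FPKM for the wild type, with 498, 561 and 791 FPKM for Q-KO (log2 change -0.24, SE 0.27, limma adjusted p = 0.651). Ldhb was at 249.6, 317 and 421 FPKM (wild type) against 94.7, 112 and 271 FPKM (Q-KO). Q-KO replicates 1 and 2 were below all wild-type libraries, and Q-KO replicate 3 lay within their range. The change of Ldhb did not pass (log2 change -1.17, SE 0.38, limma adjusted p = 0.13). Without Q-KO replicate 3, which held its highest Q-KO value, Ldhb fell by 1.63 (adjusted p = 0.04998). Lactate leaves the cell through Slc16a3 (MCT4), the carrier of strongly glycolytic cells, and moves both ways through Slc16a1 (MCT1). Slc16a3 was at 31.5, 31.2 and 10.97 FPKM for the wild type, with 4.76, 8.06 and 17.4 FPKM for Q-KO and spread 2.88-fold within wild-type and 3.65-fold within Q-KO libraries (log2 change -1.24, SE 0.50, limma adjusted p = 0.199). Slc16a1 was at 41.5, 56.6 and 36.6 FPKM (wild type) against 50.7, 51.8 and 49.9 FPKM (Q-KO), all Q-KO values lying inside the wild-type range (log2 change 0.20, SE 0.17, limma adjusted p = 0.54).

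Entry of pyruvate into the mitochondrial cycle depends on pyruvate dehydrogenase, whose catalytic subunit gene Pdha1 is X-linked, and on the kinase Pdk1, which blocks it. Pdha1 was at 138, 139 and 129 FPKM for the wild type, with 109, 99.3 and 96.8 FPKM for Q-KO. Each Q-KO library was below each wild-type library, and the difference did not pass (log2 change -0.41, SE 0.12, limma adjusted p = 0.104). Pdk1, a HIF target, was at 7.13 to 12.7 FPKM (wild type) and 6.45 to 8.52 FPKM (Q-KO) (adjusted p = 0.652). Bnip3, a mitophagy receptor induced by hypoxia, was at 69.2, 128 and 17.3 FPKM (wild type) against 13.6, 15.5 and 33.9 FPKM (Q-KO). Its wild-type values spread 7.43-fold, more than those of any other gene of the set, and the change did not pass (log2 change -1.44, SE 0.66, limma adjusted p = 0.254).

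None of the 7 pentose phosphate genes passed limma's test, and none had an unadjusted p under 0.05. Taldo1, transaldolase, was at 255, 205 and 197 FPKM for the wild type, with 187, 213 and 267 FPKM for Q-KO (log2 change 0.01, SE 0.18, limma adjusted p = 0.972). Tkt, transketolase, had 169.9 ± 24.4 FPKM (wild type) and 159.5 ± 4.90 FPKM (Q-KO) (adjusted p = 0.779). The oxidative branch gave close group means. G6pdx, the X-linked entry enzyme glucose 6-phosphate dehydrogenase, had 25.05 ± 1.96 FPKM (wild type) and 26.8 ± 0.632 FPKM (Q-KO) (log2 change 0.10, SE 0.12). Pgd, 6-phosphogluconate dehydrogenase, had 99.4 ± 23.3 FPKM (wild type) and 102 ± 5.39 FPKM (Q-KO), and Pgls, the lactonase between them, 47.02 ± 1.20 FPKM (wild type) and 48.8 ± 17.8 FPKM (Q-KO). Rpia, ribose 5-phosphate isomerase, was at 5.34 to 7.18 FPKM over the 6 libraries. Rpe, the epimerase of the non-oxidative branch, was at 63.1, 67.3 and 23.3 FPKM (wild type) against 61.6, 63.8 and 50.8 FPKM (Q-KO), and the value of wild-type replicate 3 was the outlying one of the 6 (log2 change 0.33, SE 0.36, limma adjusted p = 0.647).

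The summed FPKM of the 15 glycolytic enzyme genes from hexokinase to pyruvate kinase was 6449, 5695 and 3881 FPKM for the wild type, with 3933, 4534 and 5491 FPKM for Q-KO. Eno1b, which was listed at more than Eno1 in every library, was not part of this sum. The group means were 5342 ± 1320.1 and 4653 ± 786 FPKM, and the wild-type group alone spanned the range of all Q-KO libraries. The sum of the 7 pentose phosphate genes was 618 ± 81.8 FPKM (wild type) and 625 ± 59.98 FPKM (Q-KO).

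Many of these genes differed more among the wild-type libraries than most genes did. The highest wild-type value was more than 2 times the lowest for 10 of the 32, against 16.4% of all tested genes. Wild-type replicate 3 was the lowest of the wild-type libraries for 22 of the 32 genes, against 37.8% of all tested genes. For 12 of the 32 both other wild-type libraries were at least 1.5 times replicate 3, against 8.85% of all tested genes. These 12, which were picked from their wild-type values and are given as a description, were Bnip3, Pfkfb3, Slc16a3, Rpe, Pfkl, Pfkp, Aldoa, Pgk1, Slc2a1, Pkm, Ldha and Tpi1. The mean of wild-type replicates 1 and 2 was 5.72 times wild-type replicate 3 for Bnip3, 2.86 times for Slc16a3 and 1.65 times for Tpi1, the last being the smallest ratio of the 12. Nearest outside the limit was Pgam1, whose wild-type replicate 2 was at 375 FPKM against 265 FPKM in replicate 3. In the Q-KO group, whose values played no part in the choice, replicate 3 was the highest for 10 of the 12 (Pfkfb3 and Rpe were the exceptions), against 34.1% of the 1024 tested genes that met the same limit. Among the 2554 tested genes whose mean FPKM lay between the quartiles of the 32, 3.80% met the limit, and in 57.7% of those Q-KO replicate 3 was the highest. Over the whole set Q-KO replicate 3 was the highest Q-KO library for 23 of the 32, against 40.04% of all tested genes and 54.1% of those 2554. Q-KO replicate 3 was at 2.71 times the mean of Q-KO replicates 1 and 2 for Slc16a3, at 2.34 times it for Bnip3, at 1.75 times it for Tpi1 and at 1.70 times for Pgk1. Q-KO replicates 1 and 2 lay close to wild-type replicate 3 for several of these genes, with Bnip3 at 13.6 and 15.5 FPKM against 17.3 FPKM and Ldha at 498 and 561 FPKM against 495 FPKM. Wild-type replicate 3 also differed from wild-type replicates 1 and 2 in Y-linked transcripts, and the part of this in the pattern was not tested. Q-KO replicate 3 had the largest summed FPKM. The sum of the 15 glycolytic enzyme genes in it was 1.30 times the mean of Q-KO replicates 1 and 2 in FPKM and also after median-of-ratios scaling, and 1.08 times as a percent of all FPKM (0.749%, 0.833% and 0.856% in the Q-KO replicates). After median-of-ratios scaling Q-KO replicate 3 was still the highest for 10 of the 12. The count was not made on values as a percent of all FPKM. The summed FPKM of all genes in Q-KO replicate 3 was itself 1.20 times the mean of Q-KO replicates 1 and 2. For these 10 genes the same ratio ran from 1.21 (Pkm), 1.26 (Pfkp) and 1.29 (Slc2a1) up to 2.71 (Slc16a3).

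**Figure D4:**
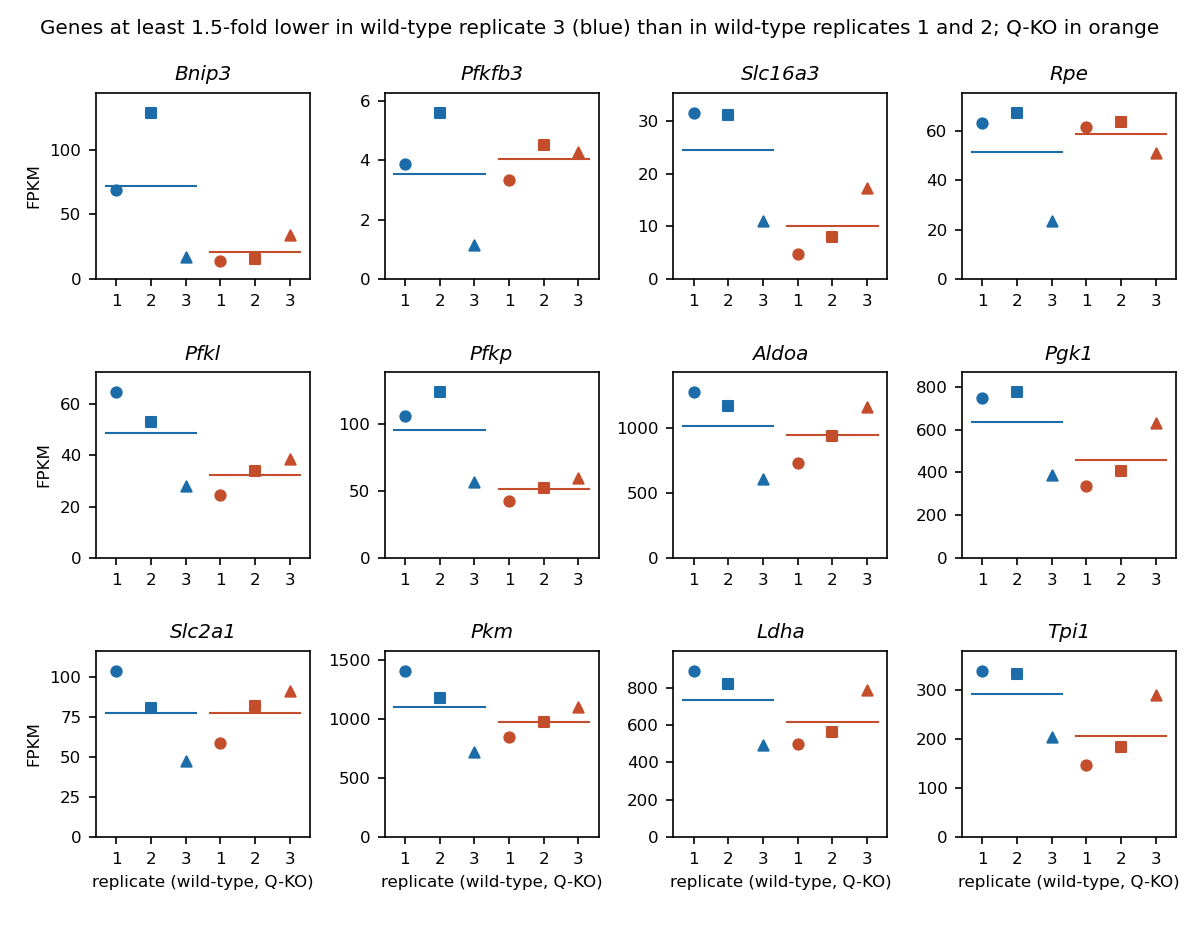
FPKM of the 12 genes that were at least 1.5-fold lower in wild-type replicate 3 than in both other wild-type libraries, in every library (wild-type blue, Q-KO orange, lines for group means). In 10 of the 12 panels Q-KO replicate 3 is the highest Q-KO library; Pfkfb3 and Rpe are the exceptions.

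Over all tested genes 566 passed limma's test in either direction without wild-type replicate 3, beside 470 with all 6 libraries. In that fit 4 of the 32 genes passed as lower in the Q-KO libraries. These were Bnip3 (log2 change -2.23, adjusted p = 0.0175), Pfkp, Pfkm and Eno1, while Hk1 did not pass (adjusted p = 0.0680). Bnip3 and Pfkp are among the 12 picked for a low value in that library, and Eno1 had its lowest wild-type value there. Leaving that library out raises their wild-type means by construction, so their calls in this fit are a description only. With Y-linked transcripts in the model the Q-KO libraries were compared with wild-type replicate 3 alone, a single sample whose spread had to be taken from the other libraries. The log2 change against it was -0.91 for Pfkm, -0.52 for Hk1 and 0.15 for Bnip3. For Rpe and Pfkfb3, which are among the 12 picked for a low value in that library, it was 1.29 and 1.22.

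Many genes that HIFs regulate carry the core of the hypoxia response element, ACGTG or GCGTG, before their start. Because wild-type replicate 3 was low for several of these genes at once, the 250 bases before the transcript start were read from RefSeq (GRCm38.p6, a newer build than the mm9 named for the deposited values) for the 31 of 32 genes in that table, using the start listed first where there were several. ACGTG and GCGTG were searched on both strands. A CACGTG, the E-box bound by MYC and related factors, counts on both strands and was merged into 1 place. The stretches shown are those of 4 genes of the 12 with matches (Bnip3, Ldha, Pgk1 and Slc16a3), of Tpi1, in which, as in those 4, wild-type replicates 1 and 2 were above Q-KO replicate 3 and that above the rest, and which has none, and of Slc16a1, which has matches and was flat across Q-KO libraries. They lie at chr7:138909507-138909756 on the minus strand, chr7:46845554-46845803 on the plus strand, chrX:106186850-106187099 on the plus strand, chr11:120948817-120949066 on the plus strand, chr6:124814159-124814408 on the minus strand and chr3:104638414-104638663 on the plus strand, each written 5′ to 3′ along its gene with matches in capitals.
Bnip3: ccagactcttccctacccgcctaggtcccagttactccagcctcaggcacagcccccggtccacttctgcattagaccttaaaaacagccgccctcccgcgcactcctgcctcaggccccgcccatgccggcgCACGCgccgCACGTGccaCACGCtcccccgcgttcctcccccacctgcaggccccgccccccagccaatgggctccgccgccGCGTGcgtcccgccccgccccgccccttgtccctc
Ldha: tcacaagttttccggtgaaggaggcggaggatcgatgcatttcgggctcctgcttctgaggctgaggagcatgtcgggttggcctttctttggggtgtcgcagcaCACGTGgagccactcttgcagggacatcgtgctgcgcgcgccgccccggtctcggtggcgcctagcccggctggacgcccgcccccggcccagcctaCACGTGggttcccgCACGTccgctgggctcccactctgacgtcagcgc
Pgk1: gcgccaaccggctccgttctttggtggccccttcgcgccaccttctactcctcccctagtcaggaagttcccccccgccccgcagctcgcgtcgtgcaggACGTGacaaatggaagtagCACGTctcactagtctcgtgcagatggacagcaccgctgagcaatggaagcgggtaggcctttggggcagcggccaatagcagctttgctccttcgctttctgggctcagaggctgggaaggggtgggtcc
Slc16a3: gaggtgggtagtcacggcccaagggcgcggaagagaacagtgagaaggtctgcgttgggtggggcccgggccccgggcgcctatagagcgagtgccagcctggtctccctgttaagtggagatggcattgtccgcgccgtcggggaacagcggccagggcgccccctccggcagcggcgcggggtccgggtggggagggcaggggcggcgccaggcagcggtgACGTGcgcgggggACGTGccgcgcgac
Tpi1: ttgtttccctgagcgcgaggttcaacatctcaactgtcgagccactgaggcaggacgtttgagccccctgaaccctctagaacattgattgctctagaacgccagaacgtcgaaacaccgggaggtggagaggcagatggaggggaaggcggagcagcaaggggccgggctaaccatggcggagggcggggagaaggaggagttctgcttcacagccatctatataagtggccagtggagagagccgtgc
Slc16a1: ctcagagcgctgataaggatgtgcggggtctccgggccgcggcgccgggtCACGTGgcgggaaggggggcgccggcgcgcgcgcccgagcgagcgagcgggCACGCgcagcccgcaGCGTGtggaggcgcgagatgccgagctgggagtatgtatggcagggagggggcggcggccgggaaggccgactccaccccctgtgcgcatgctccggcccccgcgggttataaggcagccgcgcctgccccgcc

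Bnip3 held 4 places with a match, Ldha and Slc16a1 3 each, Pgk1 and Slc16a3 2 each and Tpi1 0. At least 1 place was present in 24 of the 31 genes, and in 58.7% of the 8689 tested genes with a sequence in the table and 38.6% of all 27025 genes in it. Of the 12 genes low in wild-type replicate 3, 8 held at least 1 place and 6 at least 2, and of the other 19, 16 and 5 did. Among tested genes 25.1% held at least 2. Hk1 had 0 places and Pfkm 1. A match is a description of the sequence and not a measured binding site.

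Most families of related genes kept their order of abundance in every library. Slc2a3 exceeded Slc2a1, Hk2 exceeded Hk1, Pfkp exceeded Pfkl, Aldoa exceeded Aldoc, Ldha exceeded Ldhb and Slc16a1 exceeded Slc16a3 in all 6. The log2 ratios of 8 pairs, taken on FPKM + 1 within a library, were compared with a two-sided exact permutation test, whose smallest possible p with 3 against 3 libraries is 0.1. Hk1 made up 38.4%, 37.5% and 41.8% of the summed Hk1 and Hk2 FPKM in wild-type replicates 1, 2 and 3 and 34.7%, 33.2% and 32.9% in the Q-KO replicates. The log2 ratio of Hk1 to Hk2 was therefore lower in every Q-KO library, by 0.33 in the mean (exact p = 0.1, adjusted over the 8 pairs 0.4), and this was the only pair with separate ranges. Slc16a3 made up 23.0% to 43.2% of its pair in wild-type and 8.58% to 25.8% in Q-KO libraries, and Ldhb 21.9% to 45.97% and 15.97% to 25.5%. Neither shift was beyond the overlap of the groups (exact p = 0.2 for each ratio, adjusted 0.4). Pfkm made up 10.3%, 9.61% and 20.4% of the phosphofructokinase subunits in the wild-type libraries and 13.8%, 10.7% and 11.2% in the Q-KO libraries, which overlap.

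**Figure D5:**
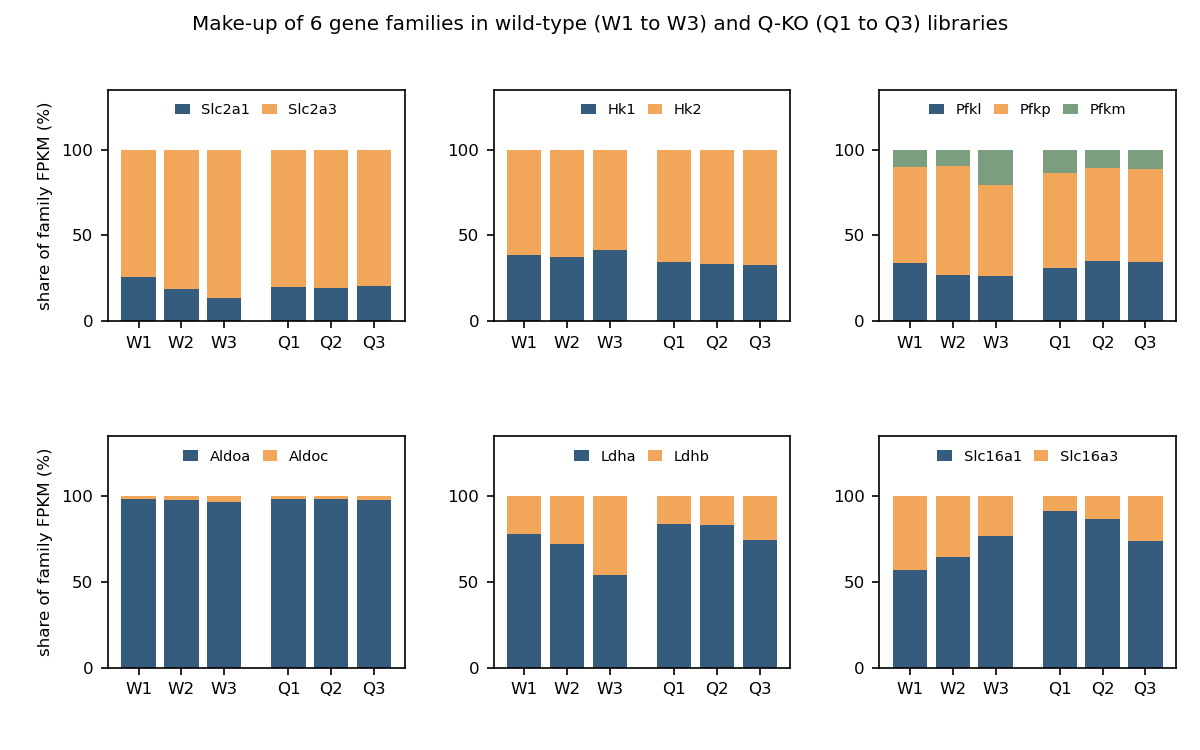
Share of the summed FPKM that each member of 6 families contributed in wild-type (W1 to W3) and Q-KO (Q1 to Q3) libraries. The share of Hk1 is lower in each Q-KO library (32.9% to 34.7%) than in each wild-type library (37.5% to 41.8%), and the shares of the other families overlap.

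Other genes of these pathways, from lists of names, gave 1 call where 4.06% of all tested genes were called. Limma's unadjusted p was under 0.05 for 21.5% of all tested genes, of which 1718 were higher and 775 lower. None of 17 tested genes among the remaining glycolytic and gluconeogenic genes passed limma's test (3 had an unadjusted p under 0.05, all higher). Their most abundant member was Bsg, the chaperone of the lactate carriers, at 257 ± 38.8 FPKM (wild type) and 273 ± 66.8 FPKM (Q-KO) (adjusted p = 0.876). None of 5 tested genes around the pentose phosphate pathway passed (0 with an unadjusted p under 0.05), with Prps1, which makes the nucleotide precursor PRPP, at 109 ± 18.5 FPKM (wild type) and 94.99 ± 15.1 FPKM (Q-KO). None of 12 tested genes of the pyruvate dehydrogenase complex, its regulators and the mitochondrial pyruvate carrier passed (2 with an unadjusted p under 0.05). Their most abundant member, Pdhb, which pairs with Pdha1 in the complex, was at 115 ± 18.6 FPKM (wild type) and 128 ± 12.4 FPKM (Q-KO). Both of those with a low unadjusted p, named after their values were seen, were higher with separate ranges, at 20.7 ± 3.81 FPKM (wild type) and 36.8 ± 9.11 FPKM (Q-KO) for the pyruvate carrier subunit Mpc2 (adjusted p = 0.0733) and 16.2 ± 3.97 FPKM (wild type) and 25.4 ± 1.04 FPKM (Q-KO) for the kinase Pdk3 (adjusted p = 0.103).

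Genes of the oxygen response did not move in 1 direction. None of the 8 tested genes of the HIF subunits and their hydroxylases passed (1 with an unadjusted p under 0.05), and Hif1a, the oxygen-regulated subunit, was at 27.1, 29.3 and 27.6 FPKM (wild type) against 30.6, 31.4 and 22.5 FPKM (Q-KO). Of 22 tested HIF targets outside the set, 1 rose and 0 fell, with a median log2 change of 0.13 and 6 unadjusted p under 0.05, 5 of them higher. Over all tested genes 3.04% rose and 1.02% fell, and the median was 0.07. Limma's unadjusted p was under 0.05 for 21.5% of them, more often higher (1718) than lower (775). The gene that rose was Hmox1, heme oxygenase, which is also induced by oxidative stress. It was at 32.7, 32.97 and 38.3 FPKM for the wild type, with 62.9, 48.6 and 53.4 FPKM for Q-KO, each Q-KO library being higher (log2 change 0.65, SE 0.14, limma adjusted p = 0.0490). Like that of Hk1, this call lay at the threshold, and among the fits that leave out a library it passed only without wild-type replicate 3 (adjusted p = 0.0415), with a highest adjusted p of 0.146 without Q-KO replicate 2. It was lost in each of the 8 settings of scaling, filter, pseudocount, trend or added term (adjusted p 0.0528 to 0.174). The most abundant of the 22 over all 6 libraries was the mitochondrial adenylate kinase gene Ak4. In the wild-type mean alone Fam162a was higher (111 FPKM against 74.9 FPKM for Ak4). Ak4 was at 56.5, 55.8 and 112 FPKM (wild type) against 133, 154 and 167 FPKM (Q-KO). Its ranges were separate with Q-KO higher, wild-type replicate 3 was its highest wild-type library, and the change did not pass (log2 change 1.08, SE 0.27, limma adjusted p = 0.0656). Both other wild-type libraries were at least 1.5 times wild-type replicate 3 for 10 of these 22 targets (Vegfa, Ankrd37, P4ha2, Ndrg1, Bhlhe40, Nfil3, Stc2, Cited2, Gys1 and Fam162a), against 8.85% of all tested genes. Of the 10, Q-KO replicate 3 was the highest Q-KO library for 7. The same limit was met by 3 of the 8 genes of HIF subunits and hydroxylases, with Q-KO replicate 3 highest in 1 of them, and by 0 of the 17 other glycolytic and gluconeogenic genes. Of those 17, 6 still had a highest wild-type value more than 2 times the lowest, against 16.4% of all tested genes. The limit was not confined to the oxygen-response lists. It was met by Prps2 and Rbks among 5 tested genes around the pentose phosphate pathway, and by Pdk3 and Pdp1 among 12 of the pyruvate dehydrogenase list.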

How the data were processed

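RNA was extracted with Trizol, and the RNA selection is not stated in the labels. The authors deposited 1 table of FPKM values per gene symbol for 6 libraries, and the tools named, without role or order, per the submitters' processing notes are STAR 2.5, Cufflinks, bcl2fastq 2.16 and CASAVA, with build mm9. For annotation, strand setting and multiply mapped fragments, the treatment is not given in the sources used here. A stray header line (1 row) was dropped, which left 24043 rows. Fragment numbers are unknown, and counting intervals were therefore left out. Relative depth came from the most frequent ratio between libraries of values below 0.1 FPKM. The scale was log2(FPKM + 1), and the test covered 11573 genes averaging 1 FPKM or more, with limma 3.58.1 in R 4.3.3 (eBayes with intensity trend, two-sided, Benjamini-Hochberg over all tested genes, threshold 0.05). This scale understates the change of low genes. Shared 31-base words came from GENCODE M21 transcripts, and the longest coding transcript stood for each gene.

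Values in every library are given for genes past the threshold, for the most abundant and most changed gene of each role and for both members of each pair; from the other lists, genes past the threshold and the most abundant member are named. The members, lists and tests were chosen with earlier results of these data known. Alternatives changed the pseudocount (to 0.1), the filter (none, or a mean of 5 FPKM), the scaling (quantile normalization, median of ratios) and the intensity trend (left out), added the replicate number as a block or Y-linked transcripts as a covariate, and left out each library in turn. Summing Eno1 and Eno1b was added after the data were seen.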

Additional observations from a re-analysis of the deposited data

How the results depend on the processing

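Of the 8 settings that could change them, Pfkm passed limma's test under all 8 (adjusted p from 0.0184 to 0.0455). Hk1 passed under 3 of the 8, and its adjusted p was 0.0537 with a pseudocount of 0.1, 0.0511 with a mean of at least 5 FPKM, 0.0642 without the intensity trend, 0.101 with the replicate block and 0.139 with the Y-linked term. The number of the 32 genes that fell was therefore 1 with a pseudocount of 0.1, with the mean of 5 FPKM, without the trend and with the Y-linked term. In that last fit the wild-type arm is 1 library, assumed to vary like the others, and 2 genes counted as higher, Rpe and Pfkfb3, both picked for a low value in that library. Leaving out a library gave 0 to 4 that fell (4 without wild-type replicate 3, and 0 when wild-type replicate 1 or a Q-KO library numbered 1 or 2 was dropped). Over all tested genes 470 passed, 266 with the mean of 5 FPKM, 894 with the Y-linked term and 28 to 566 with a library left out (the most with wild-type replicate 3 dropped and the fewest with Q-KO replicate 2 dropped). Same-numbered replicates did not deviate together over all genes (correlations -0.0282, 0.0121 and 0.0218), so no pairing by number was seen. Such correlations cannot exclude a day or batch shared by same-numbered samples. The replicate block also gave 2 that fell, Pfkm and Ldhb (adjusted p = 0.0429).

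Scaling moved the median log2 change of all genes from 0.07 to -0.01 (median of ratios) and -0.03 (quantile). The log2 changes that turned were Slc2a1 -0.040, Pgam1 -0.018, Pgd -0.022, Taldo1 -0.073, Rpia -0.018 with median-of-ratios scaling, Gapdh 0.025, Taldo1 -0.032, Rpia -0.050 with quantile normalization and Slc2a3 0.038, Gpi1 0.21, Pfkl 0.16, Aldoa 0.60, Pgk1 0.19, Pkm 0.43, Ldha 0.29, Pdk1 0.069, Bnip3 0.15, G6pdx -0.0071, Pgd -0.059, Tkt 0.078, Rpia -0.12 with the Y-linked term. None of these was past the threshold. With a library left out the log2 change crossed 0 for Aldoa -0.40 to 0.13, Eno2 -0.34 to 0.051, Gapdh -0.20 to 0.071, Gpi1 -0.13 to 0.092, Pdk1 -0.34 to 0.041, Pfkfb3 -0.18 to 0.63, Pgam1 -0.17 to 0.29, Pgd -0.14 to 0.20, Pgls -0.28 to 0.22, Pkm -0.41 to 0.072, Rpe -0.15 to 0.59, Rpia -0.037 to 0.15, Slc2a1 -0.26 to 0.29, Slc2a3 -0.15 to 0.14, Taldo1 -0.12 to 0.13, Tkt -0.16 to 0.031. The median of the 32 changes was -0.22 to 0.02 over the other settings and -0.29 to -0.05 with a library left out. The cause was not tested. Because fragment numbers are unknown, no counting error can be given for low genes such as Eno2 and Pfkfb3.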
